A study of Homo sapiens with 8 samples.

Results

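Dense runs of CHD4 peaks at 6 places in the genome were examined in SCC9, an established human cell line from a squamous cell carcinoma of the tongue. They are named for 7 genes: SOCS3, BCL3, BCL9L, RHBDF2 with CYGB, SCARB1 and MIR23A. The spans were chosen from the peak lists themselves, by fixed hg19 limits around places where peaks of all lists together lie close to each other. Their density is therefore what chose them and is given as a description. Merging overlapping peaks of the 6 lists gave 18808 regions, of which 73 lie in these spans. The spans hold 248 of the 36876 listed peaks.

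CHD4 binding was measured by chromatin immunoprecipitation and sequencing (ChIP-seq) with an antibody to CHD4. One group of 3 libraries came from SCC9 cells without DOC1 (titled lacZ) and the other group of 3 from SCC9 cells with DOC1 (titled DOC1). DOC1, also called CDK2AP1, belongs with CHD4 to the NuRD complex, and the design compares CHD4 binding without and with it. Each group also had 1 IgG library, which was not analysed here as a sample of its own. Both groups are of this 1 cell line, and the labels do not say how DOC1 was supplied. The labels do not say whether the 3 libraries of a group came from separate cultures, so their spread may be technical.

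CHD4 is the motor of NuRD, which remodels nucleosomes and deacetylates histones. It moves nucleosomes with the energy of ATP, while the histone deacetylases of the complex remove acetyl groups from histones. NuRD is found at promoters and enhancers of active as well as repressed genes, so a CHD4 peak by itself does not tell whether the gene nearby is on or off. No RNA was measured in these samples.

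The genes that name the spans have different roles. SOCS3 is an inhibitor of cytokine receptors that signal through JAK kinases and STAT3, and STAT3 induces it. BCL3 is a nuclear member of the IκB family that binds the p50 and p52 subunits of NF-κB. BCL9L links β-catenin to PYGO proteins in Wnt-driven transcription. RHBDF2 encodes iRhom2, which carries the protease ADAM17 to the cell surface, where ADAM17 sheds TNF and ligands of the EGF receptor. CYGB, its neighbour, encodes cytoglobin, a haem protein that binds oxygen and nitric oxide. SCARB1 encodes SR-BI, the receptor through which cells take up cholesterol from high-density lipoprotein. MIR23A lies in a host transcript, MIR23AHG, together with MIR27A and MIR24-2.

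The gene table at hand is of another build (GRCh38.p14), so it was used for names and gene order only, and where each region lies relative to exons, introns or start sites was not analysed here. In that order SOCS3 lies between TMEM235 and PGS1, BCL3 between CEACAM16 and CBLC, and BCL9L between CXCR5 and UPK2. RHBDF2 lies between AANAT and CYGB, and PRCD follows CYGB. MIR23A lies between ZSWIM4 and NANOS3.

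The MIR23A span is the only 1 of the 6 named for a gene whose product is itself a short sequence, and the mature products of its cluster are shown for that reason. They are 6 mature miRNAs from 3 hairpins, taken from RefSeq (GRCh38.p14), written 5′ to 3′, with the seed (bases 2 to 8, which pair with target mRNAs) in capitals.
hsa-miR-23a-3p: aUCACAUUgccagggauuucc
hsa-miR-23a-5p: gGGGUUCCuggggaugggauuu
hsa-miR-27a-3p: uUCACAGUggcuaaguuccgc
hsa-miR-27a-5p: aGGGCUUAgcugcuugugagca
hsa-miR-24-3p: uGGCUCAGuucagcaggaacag
hsa-miR-24-2-5p: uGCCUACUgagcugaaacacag
The 6 seeds are all distinct, so the miRNAs of the cluster form 6 seed groups of 1 each.

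The lists differ in length, and the spans are filled unevenly by library. The lists held 7027, 2812 and 4723 peaks in lacZ 1, lacZ 2 and lacZ 3, and 7834, 3448 and 11032 peaks in DOC1 1, DOC1 2 and DOC1 3. Of these, 56, 30 and 36 lacZ peaks and 47, 15 and 64 DOC1 peaks lie in the spans. Set side by side by number alone, DOC1 1 and DOC1 2 have longer lists than lacZ 1 and lacZ 2, respectively, and fewer peaks in the spans. DOC1 3 has a longer list than lacZ 3 and more peaks in the spans.

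Out of the 73 regions, a peak was present in 54, 28 and 32 for lacZ 1, lacZ 2 and lacZ 3, and in 42, 14 and 60 for DOC1 1, DOC1 2 and DOC1 3. DOC1 3, with the longest list, was present in 82.2% of the regions, and DOC1 2 in 19.2%. The spans took up 0.797%, 1.07% and 0.762% of the peaks of the 3 lacZ lists and 0.5999%, 0.435% and 0.580% of the DOC1 lists. All 3 lacZ shares lie above all 3 DOC1 shares. Taken singly, 16.3% of the 520 dense domains of the genome (runs of at least 5 regions, described below) also had every DOC1 share lower. Every DOC1 share was higher in 4.81% of them. The sum over all dense domains was not taken, so whether the spans differ from dense domains as a whole is not shown. The sum over the spans was not tested, since the members were chosen with results of these lists known.

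Peaks in the spans were wider than the typical peak of the same list in all 6 libraries. The median width in the spans was 465.5, 337 and 366.5 bp in the lacZ libraries, against 398, 318 and 307 bp in their whole lists. In the DOC1 libraries it was 379, 304 and 481 bp, against 289, 284 and 396 bp. Their fold enrichment, the authors' ratio of summit reads to local background for each peak, was nearer to the middle of each list. Its median percentile within the library's own list was 41.7, 54.9 and 69.1 in lacZ 1 to 3 and 56.1, 55.7 and 55.3 in DOC1 1 to 3. Fold and percentile place a peak within its own list, and since the lists differ in length, values of different libraries set side by side show no change between them.

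The number of reads behind a peak sets how firmly it can be read. Reads at the summit, reconstructed from the peak statistics, ranged over the spans from 20 to 121 in lacZ 1, 18 to 71 in lacZ 2 and 14 to 61 in lacZ 3. They ranged from 11 to 33 in DOC1 1, 10 to 34 in DOC1 2 and 20 to 97 in DOC1 3. DOC1 1 and DOC1 2 therefore had the fewest reads at their summits, and a missing peak in these libraries means only that no peak passed the caller's threshold. The part of read depth in the differences between libraries was not tested.

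**Figure D1:**
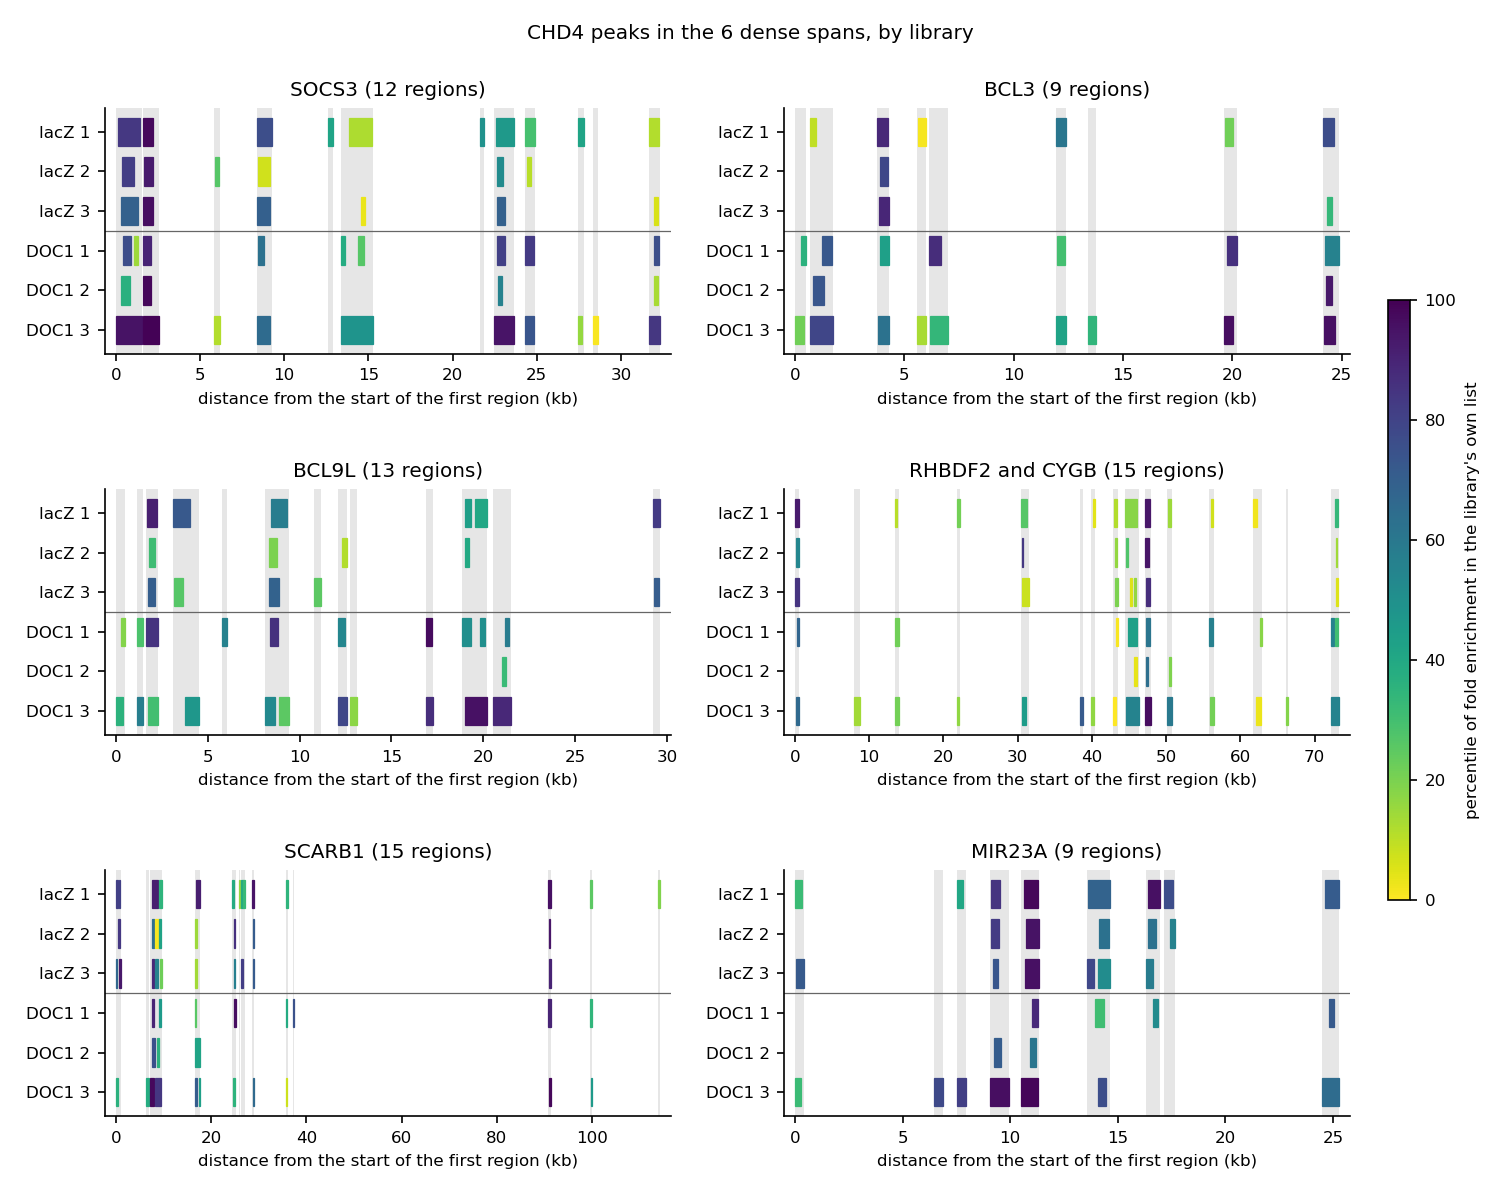
Peaks of each library (rows) in the 6 spans. The x axis is the distance in kb from the start of the first region, boxes are peaks, grey bands are merged regions, and the colour is the percentile of the peak's fold enrichment in its own list. DOC1 2, with 15 peaks in all spans together, has the emptiest row, and the SCARB1 map has a stretch of 53266 bp with no peak in any library.

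The SOCS3 span (chr17:76324886-76357215, 32.3 kb) had the most regions shared by all 6 libraries. It holds 12 regions, and 9 of them had peaks in both groups, including 3 with a peak in all 6 libraries. Peaks numbered 10, 6 and 6 in lacZ 1 to 3 and 9, 4 and 10 in DOC1 1 to 3. Of the remaining regions, 2 were found in the lacZ group alone, both in lacZ 1 and in no other library, and 1 in DOC1 3 alone. Regions cover 28.9% of the span, and the longest stretch between neighbouring regions is 6355 bp.

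Of the 3 SOCS3 regions in all 6 libraries, the one whose lowest percentile is highest lies at chr17:76326497-76327457 (961 bp), and it also holds the highest fold percentile of the span. Its fold enrichment was 12.3, 10.2 and 12.2 in lacZ 1 to 3, at percentiles 97.8, 92.9 and 96.4 of their lists. In DOC1 1 to 3 the fold was 8.03, 9.12 and 11.3, at percentiles 90.0, 98.2 and 99.3. This was a strong peak within each of the 6 lists. Its summits held 121, 71 and 58 reads in the lacZ libraries and 24, 34 and 83 reads in the DOC1 libraries, and all 6 summits fell within 96 bp of each other. The region just before it, 88 bp away, also had peaks in all 6 libraries and is 1523 bp long.

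The BCL3 span (chr19:45244486-45269365, 24.9 kb) was filled mainly by the 2 longer DOC1 lists and lacZ 1. It holds 9 regions and no region was shared by all 6 libraries. Peaks numbered 6, 1 and 2 in lacZ 1 to 3 and 7, 2 and 9 in DOC1 1 to 3. DOC1 3 had a peak in each of the 9 regions and lacZ 2 in 1 of them. Peaks of both groups were found in 6 regions, of DOC1 libraries alone in 3 regions and of lacZ libraries alone in 0. The 3 make up 33.3% of its regions, below the 55.4% of all regions with peaks in DOC1 libraries alone. With peaks in lacZ libraries alone there were 16.7% of all regions. These 3 regions involve DOC1 1 and DOC1 3, and none of them had a peak in DOC1 2. The span lies inside a longer run, since the next regions outside it lie 1876 bp before its start and 1287 bp after its end.

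In the BCL3 span 2 regions tied with 5 libraries each. The one chosen by its lowest percentile, as the rule for ties asks, lies at chr19:45248217-45248793 (577 bp) and had a peak in all libraries but DOC1 2. In lacZ 1 to 3 the fold enrichment there was 8.31, 7.74 and 9.31, at percentiles 88.9, 78.6 and 89.4. In DOC1 1 and DOC1 3 the fold was 5.75 and 5.51, at percentiles 43.5 and 62.2. The 5 summits lay within 147 bp. The tied region, chr19:45268616-45269365 (750 bp), had a peak in all libraries but lacZ 2. There the fold was 6.98 and 5.62 in lacZ 1 and lacZ 3, at percentiles 76.6 and 33.3. In DOC1 1 to 3 it was 6.11, 7.38 and 8.40, at percentiles 56.1, 93.7 and 95.8, and the 5 summits lay within 102 bp. One of the tied regions thus lacks a DOC1 library and the other a lacZ library.

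The highest fold percentile of the BCL3 span belonged to another region, chr19:45264110-45264683 (574 bp), which was found in 3 libraries. There the fold was 4.67 in lacZ 1, 7.61 in DOC1 1 and 8.54 in DOC1 3, at percentiles 21.5, 86.0 and 96.1. Each percentile refers to a list of its own length, so no difference between the groups is read from them.

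The BCL9L span (chr11:118766850-118809354, 42.5 kb) had the largest number of regions found with DOC1 alone. Of its 13 regions, 6 had peaks in DOC1 libraries alone, 2 in lacZ libraries alone and 5 in both groups. The 6 make up 46.2% of its regions, below the 55.4% of all 18808 regions that had peaks in DOC1 libraries alone. No region was in all 6 libraries. Peaks numbered 6, 4 and 5 in lacZ 1 to 3 and 10, 1 and 11 in DOC1 1 to 3. DOC1 1 and DOC1 3 had more peaks here than any lacZ library, and DOC1 2 had fewer than any. All of its regions lie in the last part of the span, from 118779725 onwards.

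One BCL9L region, chr11:118800276-118801232 (957 bp), had a peak in all 3 DOC1 libraries and in no lacZ library. It was the single region of this pattern among the 73 (1.37%), and 0.978% of all 18808 regions have the same pattern. Its fold enrichment was 6.23, 4.78 and 7.08 in DOC1 1 to 3, at percentiles 58.4, 32.1 and 88.7, with 14, 10 and 36 reads at the summits. The peak of DOC1 2 is its only peak in the whole span. Summits lay at 118801017, 118800880 and 118801020, so those of DOC1 1 and DOC1 3 were nearly at the same base and that of DOC1 2 was before them. A region 334 bp before it had peaks in lacZ 1, lacZ 2, DOC1 1 and DOC1 3. For 1 region, 3 of 3 against 0 of 3 libraries gives a two-sided Fisher exact p of 0.1, so this design cannot call a single region. Over all spans, regions of this pattern numbered 6 of 73 without DOC1 2 and 2 of 73 without lacZ 1. They numbered 2 of 51 in lists of equal length and 0 of 61 with peaks within 500 bp merged. Leaving out a library loosens the pattern, since fewer lists have to hold or lack a peak. The shares over all regions were not taken for these counts.

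In the BCL9L span 2 regions tied as well, both found in all libraries but DOC1 2. The one chosen by the same rule lies at chr11:118781386-118782019 (634 bp). Its fold enrichment was 8.91, 5.46 and 7.27 in lacZ 1 to 3 and 7.54 and 4.47 in DOC1 1 and DOC1 3. Within their own lists these peaks stood at percentile 91.3 in lacZ 1, 31.1 in lacZ 2, 85.5 in DOC1 1 and 30.1 in DOC1 3, so replicates of both groups differed in where they placed it. The tied region, chr11:118787826-118789147 (1322 bp), had folds of 5.96, 5.03 and 7.15 in lacZ 1 to 3 and 7.57 and 5.20 in DOC1 1 and DOC1 3, with summits within 219 bp. The highest percentile of the span was at chr11:118796625-118796989 (365 bp), found in DOC1 1 and DOC1 3 alone. There the fold was 10.03 in DOC1 1 (percentile 97.1, 20 reads) and 6.87 in DOC1 3 (percentile 86.8, 33 reads), with summits 38 bp apart.

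The span of RHBDF2 and CYGB (chr17:74466973-74554096, 87.1 kb) holds 15 regions, and no region of it was confined to lacZ libraries. Peaks of both groups were found in 12 regions and of DOC1 libraries alone in 3, each of them in DOC1 3 and no other library. These 3 make up 20% of its regions, below the 55.4% of all regions with peaks in DOC1 libraries alone. Regions confined to lacZ libraries make up 16.7% of all regions. Peaks numbered 12, 6 and 7 in lacZ 1 to 3 and 9, 3 and 15 in DOC1 1 to 3. DOC1 3 had a peak in every one of the 15 regions. Many peaks here had a low fold enrichment within their lists, but not few reads. The median fold percentile of the span's peaks was 16.1, 40.7 and 16.3 in the lacZ libraries and 43.5, 19.4 and 21.2 in the DOC1 libraries. Their median reads at the summit were 50, 40.5 and 35 in lacZ 1 to 3 and 23, 24 and 58 in DOC1 1 to 3. The medians of the whole lists were lower, at 38, 27 and 22 in lacZ 1 to 3 and 15, 15 and 34 in DOC1 1 to 3.

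Against these peaks of low fold stood one of higher fold at chr17:74527920-74528807 (888 bp), found in all 6 libraries. Its fold enrichment was 9.68, 10.7 and 8.83 in lacZ 1 to 3, at percentiles 94.0, 94.4 and 87.0. In DOC1 1 to 3 the fold was 6.29, 5.64 and 8.83, at percentiles 61.3, 64.0 and 96.8. Summits held 90, 64 and 42 reads in the lacZ libraries and 23, 26 and 78 reads in the DOC1 libraries. The 6 summits fell within 60 bp, the tightest of the regions shared by all 6 libraries in the spans. The other region of this span in all 6 libraries is the opposite case. It is 1905 bp long and its summits spread over 1278 bp. Those of lacZ 2 (74525459) and DOC1 3 (74525792) lay before the rest, which fell between 74526484 and 74526737. The libraries thus share the region, but not all of them share the position of the summit.

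The SCARB1 span (chr12:125223102-125348519, 125.4 kb) is the longest and the least filled, with regions over 7.59% of its length. Of its 15 regions, 12 lie in the first part and the last 3 follow a stretch of 53266 bp with no peak. Peaks numbered 14, 8 and 10 in lacZ 1 to 3 and 8, 3 and 12 in DOC1 1 to 3. Peaks of both groups were found in 8 regions, of lacZ libraries alone in 5 and of DOC1 libraries alone in 2. This is the only span of the 6 with more than 2 regions confined to lacZ libraries. They make up 33.3% of its regions, beside 16.7% of all regions. Some of them were found in lacZ 1 alone, at low fold percentiles of 16.3, 32.7 and 18.9, and the others in 2 or 3 lacZ libraries.

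One SCARB1 region, chr12:125223602-125224095 (494 bp), had a peak in all 3 lacZ libraries and in no DOC1 library. It was the single region of this pattern among the 73 (1.37%), beside 1.18% of all regions. Fold enrichment there was 7.34, 8.28 and 10.5 in lacZ 1 to 3, at percentiles 80.9, 83.9 and 93.7, with 32, 24 and 25 reads at the summits. Summits lay at 125223878, 125223818 and 125223915. The region ranked high in each lacZ list. It begins 74 bp after the end of another region, in which lacZ 1, lacZ 3 and DOC1 3 had peaks, so CHD4 peaks of DOC1 3 were present close by. As above, the exact p for 1 such region is 0.1. Over all spans, regions of this pattern numbered 3 of 73 without lacZ 2 and 3 of 70 without DOC1 3. They numbered 2 of 72 without lacZ 3 and 2 of 71 without DOC1 1. In lists of equal length they numbered 3 of 51, and with peaks within 500 bp merged 0 of 61. Here too a library left out loosens the pattern, and the shares over all regions were not taken for these counts.

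In the SCARB1 span 2 regions were found in all 6 libraries, and the one chosen by the same rule lies at chr12:125230326-125232848. It is 2523 bp long, the longest region of the 6 spans, and held 2 or 3 peaks in each library. The strongest peak of each library there had a fold enrichment of 9.14, 6.78 and 9.15 in lacZ 1 to 3 and 8.03, 5.99 and 9.39 in DOC1 1 to 3. Their summits lay within 115 bp although the region is long. The other region in all 6 libraries, chr12:125239664-125240799 (1136 bp), had folds of 8.94, 4.78 and 4.70 in lacZ 1 to 3 and 5.12, 5.02 and 5.87 in DOC1 1 to 3. Its summits spread over 623 bp, with that of lacZ 1 farthest from the rest. The highest percentile of the span was at chr12:125313806-125314473 (668 bp), after the long stretch with no peak. Its fold was 10.6, 10.7 and 9.47 in lacZ 1 to 3 and 8.06 and 9.89 in DOC1 1 and DOC1 3, with no peak in DOC1 2. It ranked at percentiles 95.9, 94.5 and 90.3 in the lacZ lists and 90.2 and 98.4 in these DOC1 lists, so it was strong wherever it was listed.

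The MIR23A span (chr19:13947254-13973222, 26.0 kb) was filled more fully by lacZ libraries than by DOC1 1 and DOC1 2. It holds 9 regions, of which 7 had peaks in both groups, 1 in lacZ libraries alone and 1 in DOC1 libraries alone. Peaks numbered 8, 5 and 6 in lacZ 1 to 3 and 4, 2 and 7 in DOC1 1 to 3. All 3 lacZ libraries had a peak in 4 of the regions (44.4%), beside 31.5% of the 73 regions and 9.96% of all regions. All 3 DOC1 libraries had a peak in 1 (11.1%), beside 16.4% of the 73 and 5.34% of all regions.

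That 1 region, found in all 6 libraries, lies at chr19:13958438-13959280 (843 bp), and it holds the highest percentile of the MIR23A span. Its fold enrichment was 12.8, 11.2 and 11.5 in lacZ 1 to 3, at percentiles 98.2, 95.1 and 95.7. In DOC1 1 to 3 the fold was 7.89, 5.53 and 10.1, at percentiles 88.5, 60.7 and 98.7. Summits held 61, 35 and 29 reads in the lacZ libraries and 18, 15 and 49 reads in the DOC1 libraries, and they lay within 130 bp. Its distance from the hairpins of the miRNAs printed above was not analysed here, since their positions are known only in the other build.

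**Figure D2:**
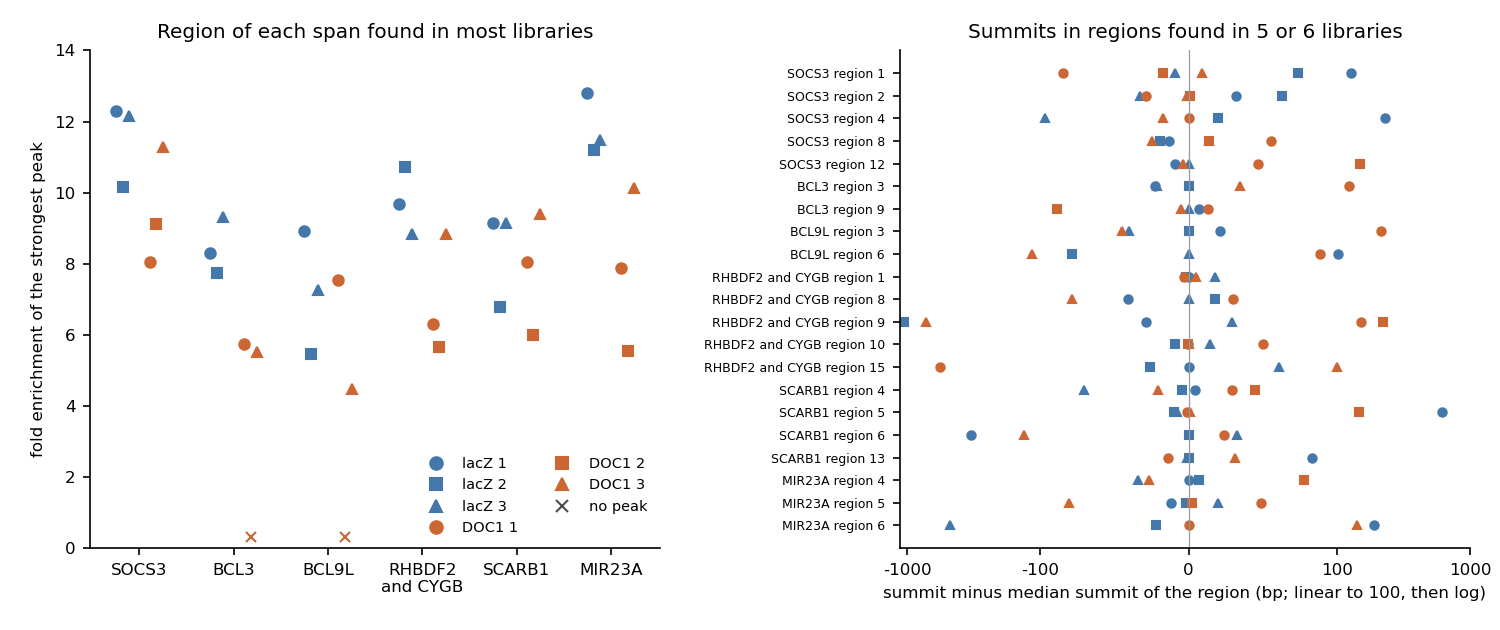
Left, fold enrichment of the strongest peak (y axis) in the region of each span that is found in most libraries (of tied regions, the one whose lowest percentile is highest), 1 symbol per library, with a cross where a library has no peak. Right, the position of each library's summit relative to the median summit of the region, in bp, for the 21 regions found in 5 or 6 libraries (axis linear to 100 bp on each side and logarithmic beyond). The crosses are DOC1 2 in the BCL3 and BCL9L spans, and the widest spread on the right is 1278 bp, in a region of the RHBDF2 and CYGB span.

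The 73 regions were next described by the libraries that share them, beside the same shares over all regions. The regions in the spans had a median length of 549 bp, against 379 bp over all regions. Regions in all 6 libraries numbered 8, or 10.96% of the 73, beside 2.75% of all regions. They were 3 at SOCS3, 2 each at RHBDF2 with CYGB and at SCARB1, 1 at MIR23A and 0 at BCL3 and BCL9L. Without DOC1 2, 18 regions were shared by the 5 remaining libraries. That is a looser condition, and its share over all regions was not taken. Regions in 1 library alone made up 21.9% of the 73 and 56.2% of all regions. Regions with peaks in both groups made up 64.4% of the 73 and 27.8% of all regions. Since peaks of all lists together chose the spans, these shares describe the choice and are no test.

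Regions with peaks in DOC1 libraries alone numbered 16 (21.9%), beside 55.4% of all regions. With peaks in lacZ libraries alone there were 10 (13.7%), beside 16.7% of all regions. Fewer of these 1-group regions were found in more than 1 list. Those in 2 or more DOC1 lists and no lacZ list numbered 6 (8.22%), beside 11.5% of all regions, with 4 of them at BCL9L and 2 at BCL3. Those in 2 or more lacZ lists and no DOC1 list numbered 4 (5.48%), beside 4.49% of all regions, with 2 at SCARB1 and 1 each at BCL9L and MIR23A. The 2 shares for 2 or more lists are near those over all regions, and the spread of so few regions over the spans was not tested. A pattern shared by many of the 73 regions was a peak in DOC1 1 and DOC1 3 but not in DOC1 2, which held for 27 regions (37.0%) beside 20.7% of all regions.

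**Figure D3:**
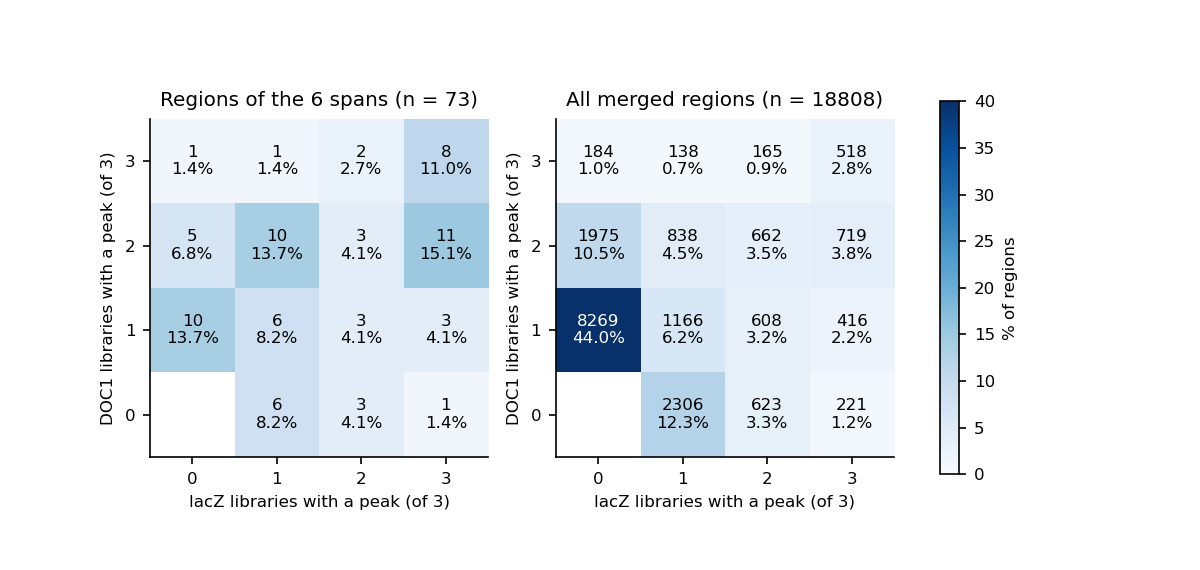
Number and share of regions by how many of the 3 lacZ libraries (x axis) and of the 3 DOC1 libraries (y axis) have a peak there, for the 73 regions of the spans (left) and all 18808 regions (right). The top right corner, all 6 libraries, holds 8 regions in the spans and 518 over all, and the largest share over all is of regions in 1 DOC1 library and no lacZ library.

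The distance between the outermost summits of a region was set beside that over all regions. In the 57 regions of the spans found in 2 or more libraries its median was 140 bp, and over all 8233 such regions it was 113 bp. The summits lay within 100 bp in 35.1% of these regions of the spans and in 44.4% over all. In the 21 regions found in 5 or 6 libraries the median was 147 bp, beside 155.5 bp over 1402 regions, and 23.8% had summits within 100 bp, beside 26.5%. In the 8 regions found in all 6 libraries it was 122.5 bp, beside 149 bp over 518 regions. The spans thus had the larger median among all shared regions and the smaller one among the most widely shared, and none of these differences was tested. In 3 of the 8 regions (37.5%, beside 26.6% over all) the summits lay within 100 bp. The 3 are the SOCS3 region and the RHBDF2 and CYGB region described above and another SOCS3 region, whose summits lay within 80 bp.

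The share of a library's peaks that lies in each span was compared between the groups, in place of the number of peaks. A share can still depend on the length of the list, and lists of equal length are given after it. The same exact permutation test was run on all 520 dense domains of the genome, runs of at least 5 regions with gaps of at most 20 kb, in which the 6 spans stand for the domains they overlap. With 3 libraries against 3 the smallest two-sided p is 0.1, so no domain can pass a threshold of 0.05. Every DOC1 library had a lower share than every lacZ library in 4 of the 6 spans, and in 16.3% of all 520 domains. The domains are not like the spans in this. Some have no peak in a lacZ library, so that no DOC1 share can be lower, while every span has peaks in each library. In 0 of the 6 spans, and in 4.81% of the domains, every DOC1 share was higher. As the spans were chosen with these lists known, the count is a description.

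Among the 6 spans, SCARB1 had the largest difference in percentage points, and it also held the most peaks, 55 over the 6 lists. Its peaks made up 0.199%, 0.284% and 0.212% of the lists of lacZ 1 to 3 and 0.102%, 0.0870% and 0.109% of those of DOC1 1 to 3. The groups do not overlap. The means were 0.232% ± 0.0460 (SD, n = 3) without DOC1 and 0.0993% ± 0.0112 (SD, n = 3) with DOC1, a difference of -0.133 percentage points (exact permutation p = 0.1, 0.473 after Benjamini-Hochberg adjustment over 520 domains).

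At MIR23A the shares were 0.114%, 0.178% and 0.127% in lacZ 1 to 3 and 0.0511%, 0.0580% and 0.0635% in DOC1 1 to 3. Again every DOC1 library lay below every lacZ library. The means were 0.140% ± 0.0338 and 0.0575% ± 0.00621 (SD, n = 3 each), a difference of -0.0821 percentage points (exact permutation p = 0.1, adjusted p = 0.473).

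For RHBDF2 with CYGB the shares were 0.171%, 0.213% and 0.148% without DOC1 and 0.115%, 0.0870% and 0.136% with DOC1. The difference of the means was -0.0648 percentage points, from 0.177% ± 0.0331 to 0.113% ± 0.0246 (SD, n = 3 each; exact permutation p = 0.1, adjusted p = 0.473). The groups came close, with DOC1 3 just below lacZ 3.

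At SOCS3 the shares were 0.142%, 0.213% and 0.127% without DOC1 and 0.115%, 0.116% and 0.0906% with DOC1. The difference of the means was -0.0537 percentage points, from 0.161% ± 0.0461 to 0.107% ± 0.0143 (SD, n = 3 each; exact permutation p = 0.1, adjusted p = 0.473). Here too the groups did not overlap, and lacZ 2 stood farthest above the rest. Without lacZ 2 the difference was -0.0275 percentage points.

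In the other 2 spans the groups overlapped. At BCL3 the shares were 0.0854%, 0.0356% and 0.0423% without DOC1 and 0.0894%, 0.0580% and 0.0816% with DOC1, so lacZ 1 stood among the DOC1 libraries. The means were 0.0544% ± 0.0270 and 0.0763% ± 0.0163 (SD, n = 3 each), and the difference was 0.0219 percentage points (exact permutation p = 0.3, adjusted p = 0.681), the only positive one of the 6. It was 0.0374 without lacZ 1 and 0.0124 without lacZ 2. At BCL9L the shares were 0.0854%, 0.142% and 0.106% without DOC1 and 0.128%, 0.0290% and 0.0997% with DOC1. DOC1 2 was the lowest of all and DOC1 1 the next to highest. The means were 0.111% ± 0.0288 and 0.0855% ± 0.0508 (SD, n = 3 each), with a difference of -0.0257 percentage points (exact permutation p = 0.5, adjusted p = 0.807). Without DOC1 2 it was 0.00251.

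**Figure D4:**
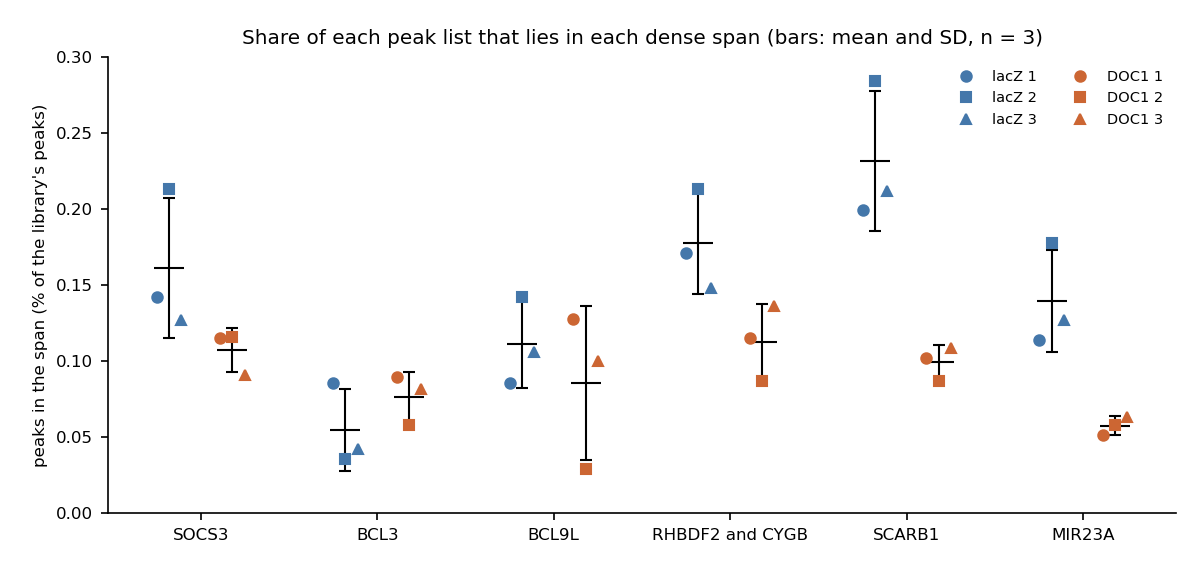
Share of each library's peaks that lies in each span (y axis, % of the list), 1 symbol per library, with the mean and SD of 3 libraries per group as bars. The DOC1 libraries lie below the lacZ libraries at SOCS3, RHBDF2 and CYGB, SCARB1 and MIR23A, and the groups overlap at BCL3 and BCL9L.

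To set lists of 1 length side by side, each was shortened to its 2812 peaks of lowest p-value, as many as the shortest list holds. At SCARB1 this left 6, 8 and 6 peaks in lacZ 1 to 3 and 3, 3 and 5 in DOC1 1 to 3. At MIR23A it left 6, 5 and 5 peaks in the lacZ libraries and 1, 2 and 3 in the DOC1 libraries. The difference was then larger at MIR23A (-0.119 percentage points) than at SCARB1 (-0.107). In both spans every DOC1 library still lay below every lacZ library (exact permutation p = 0.1, adjusted p = 0.954 over 89 domains), beside 10.1% of these 89 domains.

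The other 2 spans lost that separation. At SOCS3 the shortened lists held 7, 6 and 4 peaks without DOC1 and 6, 4 and 7 with DOC1, with a difference of 0. At RHBDF2 with CYGB they held 4, 6 and 4 peaks without DOC1 and 7, 2 and 9 with DOC1, and the difference turned to 0.0474 percentage points. In this span DOC1 1 and DOC1 3 were the highest and DOC1 2 the lowest. At BCL3 the shortened lists held 3, 1 and 2 peaks without DOC1 and 5, 2 and 5 with DOC1. At BCL9L they held 3, 4 and 3 without DOC1 and 3, 0 and 4 with DOC1.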

How the data were processed

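The 6 CHD4 peak lists deposited by the authors, in narrowPeak layout and 1 per library, were the starting point. Tools named in the submitters' processing notes are Trimmomatic 0.33, BWA 0.7.12-r1039, SAMtools 1.2 and, for the peaks, MACS2 2.1.1.20160309, with hg19 (GRCh37) as genome. Their options, the read filters and the control are not given there. The deposited values of a peak are a fold enrichment (a ratio), the −log10 of its p-value and q-value, and a score. Groups come from the sample titles. Regions are peaks that overlap by 1 bp or more, and a library is present where it has a peak. Reads at the summit were solved from fold and p-value as MACS2 is known to compute them, and matched the deposited −log10 p within 0.005. Reads are not independent molecules, as libraries were amplified by PCR.

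The named regions are, in each span, the one in most libraries (of tied regions, that whose lowest percentile is highest), each in 3 libraries of 1 group and 0 of the other, and the one with the highest fold percentile. Members and lists were chosen with earlier results of these data known. Lists of related genes need an hg19 annotation and were not used here. Group differences in shares were tested by exact permutation over 20 assignments (two-sided) and adjusted over all dense domains. The code (Python 3.11.15 with numpy 2.4.6 and pandas 2.3.3; scipy 1.17.1; matplotlib 3.10.9 for plots) was tested on simulated data.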

Additional observations from a re-analysis of the deposited data

How the results depend on the processing

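With lists of equal length, the difference in peak share was 0 at SOCS3 and turned to 0.0474 percentage points at RHBDF2 with CYGB. Regions in all DOC1 and no lacZ libraries then numbered 2 of 51, and those in all lacZ and no DOC1 libraries 3 of 51. Merging peaks within 500 bp left 0 of either kind. Leaving out 1 library at a time gave 1 to 6 regions of the first kind (6 without DOC1 2, 2 without lacZ 1). It gave 1 to 3 of the second kind (3 without lacZ 2 or DOC1 3, 2 without lacZ 3 or DOC1 1) and 8 to 18 regions in all libraries (18 without DOC1 2). A library left out loosens each of these patterns, and the shares over all regions were not taken for these counts. The difference at BCL9L ran from -0.0468 to 0.00251 percentage points, the latter without DOC1 2. In the other 5 spans it kept its sign without any 1 library, from -0.149 to -0.106 at SCARB1, -0.0949 to -0.0629 at MIR23A, -0.0795 to -0.0469 at RHBDF2 with CYGB, -0.0707 to -0.0275 at SOCS3 and 0.0124 to 0.0374 at BCL3. The stricter threshold (−log10 q of at least 3) and shares of covered length reversed no sign. Summits in place of peaks left every difference as it was. Domain gaps of 10 or 50 kb could not change the differences, since the spans are fixed. They changed only the domains over which p was adjusted. Over all alternatives the adjusted p ran from 0.394 to 1 at SOCS3, from 0.394 to 0.954 at SCARB1 and MIR23A, 0.442 to 1 at RHBDF2 with CYGB, 0.525 to 0.954 at BCL3 and 0.735 to 1 at BCL9L. Same-numbered libraries did not deviate together (correlations 0.00648, 0.0307 and -0.0193). With the replicate number as a block (replicate block), the differences had to stay the same, -0.133 percentage points at SCARB1 and -0.0821 at MIR23A. The mean of the paired differences always equals the difference of the group means. The exact p of this block test was 0.75 at BCL9L and 0.25 in the other 5 spans, the smallest that 3 pairs allow. Weak peaks, with as few as 10 reads at the summit in DOC1 2, limit how far an absent peak can be read.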

Other observations

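Outside the chosen limits, 3 of the spans have further regions at most 20 kb from their edges or from each other. The run at SOCS3 holds 21 regions over 100.2 kb, against 12 in the span, and the run at BCL3 holds 17 regions over 56.2 kb, against 9. At SCARB1 the span gains 1 region, to 16, although the span itself holds a gap of 53266 bp and is no run by that limit. In an alternative added after the data were seen, the shares were taken over these extended stretches. The difference between the groups was then -0.0819 percentage points at SOCS3, -0.139 at SCARB1 and 0.0270 at BCL3, with the same signs as in the spans.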
